A study of Homo sapiens with 9 samples.

Results

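The replication-dependent histone genes were taken by name as the protein-coding genes H1-1 to H1-5 and those whose symbols begin with H2AC, H2BC, H3C or H4C followed by a number. The rule found 69 genes among 20037 protein-coding genes of the RefSeq table, 5 for linker histones and 64 for core histones. Of the core genes, 17 encode H2A, 19 encode H2B, 13 encode H3 and 15 encode H4. In hg38, 54 of the 69 lay in 3 clusters on chromosome 6, with 33, 5 and 16 genes, and 13 lay in 2 clusters on chromosome 1, with 11 and 2 genes. H4C16 lay alone on chromosome 12 and H2BC12L alone on chromosome 21. The data were 6 lists of called intervals, or peaks, with 1 library per group, from a study of whether FBXO42, a substrate receptor of a ubiquitin ligase, affects DNA binding by RBPJ and the openness of chromatin.

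Of these lists, 4 came from CUT&Tag with an RBPJ antibody in HEK293T, a human line of embryonic kidney origin. CUT&Tag uses an antibody to direct a transposase, which cuts and tags the DNA beside the bound protein. The wild-type and the FBXO42 knockout cells gave 1 list each, and the libraries titled RBPJ and RBPJK175R gave 1 each. By their genotype label, both of these last libraries are of FBXO42 knockout cells. The labels do not say by what means RBPJ or RBPJK175R was brought into them. The other 2 lists came from ATAC-seq, in which free transposase cuts open chromatin, in wild-type and FBXO42 knockout cells labelled Jurkat, a T cell leukaemia line. Knockout used CRISPR constructs delivered by lentivirus. Whether cells were clones or pools is not stated in the labels. The 3 IgG libraries of the series were not analysed here.

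Replication-dependent histone genes supply the core histones that form nucleosomes, and the linker histones that bind between them, while DNA is copied. They are short genes without introns in their coding part, and are transcribed mainly in S phase within a nuclear structure called the histone locus body. Their mRNAs end in a stem-loop in place of a poly(A) tail. Many H2A and H2B genes stand back to back and share a promoter. RBPJ is the DNA-binding protein of the Notch pathway, which holds targets silent with corepressors or activates them with cleaved Notch.

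The promoters below are the 250 bases before the annotated start from RefSeq (GRCh38.p14), written 5′ to 3′ along the gene. They are shown because the histone genes with the most reads in the wild-type RBPJ list lie among them, beside a gene with an interval in no list. H2BC26 shares most of its window with H2AC25 and is not printed. Capitals mark 5 motifs on either strand: TGGGAA, the core letters of the RBPJ site, the octamer ATTTGCAT, the box CCAAT bound by the factor NF-Y, the TATA box letters TATAAA, and AAACACA, a box of linker histone promoters. A match on the opposite strand appears as its reverse complement.
H1-4, chr6:26156079-26156328, + strand: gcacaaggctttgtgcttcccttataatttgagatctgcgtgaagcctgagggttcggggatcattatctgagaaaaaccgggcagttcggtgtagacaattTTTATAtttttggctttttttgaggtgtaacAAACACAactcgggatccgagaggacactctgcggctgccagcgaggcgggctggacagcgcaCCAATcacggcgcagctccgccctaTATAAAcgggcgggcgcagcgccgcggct
H2BC5, chr6:26157871-26158120, + strand: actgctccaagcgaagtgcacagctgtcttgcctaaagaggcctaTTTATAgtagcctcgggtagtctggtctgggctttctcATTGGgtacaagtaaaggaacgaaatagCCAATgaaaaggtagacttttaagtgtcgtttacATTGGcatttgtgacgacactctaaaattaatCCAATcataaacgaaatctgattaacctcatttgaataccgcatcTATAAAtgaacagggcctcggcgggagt
H2AC25, chr1:228457874-228458123, - strand: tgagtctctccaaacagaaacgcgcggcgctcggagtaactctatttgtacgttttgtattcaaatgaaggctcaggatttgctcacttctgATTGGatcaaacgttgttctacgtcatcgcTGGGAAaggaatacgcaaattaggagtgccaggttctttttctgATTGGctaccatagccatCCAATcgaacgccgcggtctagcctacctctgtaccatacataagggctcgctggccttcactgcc
H2AC4, chr6:26033619-26033868, - strand: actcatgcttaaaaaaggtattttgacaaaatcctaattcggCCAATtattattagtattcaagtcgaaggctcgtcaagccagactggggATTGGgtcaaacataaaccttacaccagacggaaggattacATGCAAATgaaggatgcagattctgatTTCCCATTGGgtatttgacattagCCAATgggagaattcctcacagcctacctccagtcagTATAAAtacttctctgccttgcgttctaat
H4C14, chr1:149832407-149832656, + strand: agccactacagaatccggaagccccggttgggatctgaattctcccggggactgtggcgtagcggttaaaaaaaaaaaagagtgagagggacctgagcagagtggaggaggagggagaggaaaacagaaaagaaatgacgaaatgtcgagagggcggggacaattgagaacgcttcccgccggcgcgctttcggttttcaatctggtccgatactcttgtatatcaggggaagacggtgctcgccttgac
The H1-4 promoter held AAACACA from base -117, CCAAT from base -54 and TATAAA from base -29, counted from the start. The promoters of H2AC25 and H2AC4 held TGGGAA, from base -128 and, on the opposite strand, from base -91. That of H2BC5 held no TGGGAA but CCAAT at 4 places. H4C14, which had an interval in no list, held none of the 5 motifs in these bases. Its copy H4C15, whose promoter shares 100% of its 25-base words, had an interval in 2 lists. H3C14, also in no list, held CCAAT from bases -91 and -50 and TATAAA from base -28. Lack of these motifs is thus not a trait of all genes in no list. H3C14 also has a near-identical copy, H3C15, and such copies are taken up below.

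A promoter entry was found for 63 of the 69 genes; H2BC12L, H4C1, H4C3, H2AC12, H3C11 and H3C12 had none. Each motif was counted on both strands in 300-base windows, from 250 bases before to 50 after the start, and set beside 15843 protein-coding genes. Windows of genes that stand back to back can overlap. The same letters can then count for both genes, as TGGGAA did at H2AC25 and H2BC26, so these windows are not independent. CCAAT stood in 53 of 63 histone windows (84.1%, against 36.4% of all windows). It was in every H1, H2A, H2B and H3 window and in 3 of 13 H4 windows. TATAAA stood in 42 (66.7%, against 9.63%). The octamer ATTTGCAT stood in 26 (41.3%, against 1.70%), of which 14 of 18 were H2B and 11 of 16 were H2A windows. AAACACA was in all 5 linker windows and in 8 of 63 in all (12.7%, against 4.24%).

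TGGGAA did not stand out among the histone promoters. It was present in 14 of 63 windows (22.2%) against 22.7% of all protein-coding windows. Its longer form GTGGGAA, which contains it, was present in 2 (3.17%) against 5.99%. These 2 were the windows of H2AC13 and H2BC13, which stand back to back. Of the 14 histone genes with TGGGAA, 10 had a gene-end interval in the wild-type RBPJ list (71.4%), and of the 49 without it 31 had one (63.3%). Over all protein-coding genes, TGGGAA stood in 22.4% of windows of genes with such an interval and in 23.1% of those without. These matches describe letters in a window and are not sites of binding. The histone windows were poorer in G and C, with a median of 43.0% against 62.7% over all protein-coding genes.

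Before the counts, the lists were checked for depth and against their labels. Each called interval has a summit, the position with the most reads piled up. The background expected there without enrichment was 1.77 reads genome-wide in the wild-type RBPJ list, 1.63 in knockout RBPJ, 1.26 in titled RBPJ, 0.675 in titled RBPJK175R, 0.417 in wild-type ATAC and 0.184 in knockout ATAC. The lists held between 19913 and 42656 intervals. Of 11 T cell genes (among them CD3D, CD3E, CD3G, CD2 and LCK), 1 had a gene-end interval in wild-type ATAC and 0 in knockout ATAC, where 0 of 11 allows a share of up to 27.3% by counting error. Of 8 kidney or HEK293T genes, 3 and 5 had one there, with NEFL and CDH2 present in both. The ATAC libraries are therefore called by their label only. The 4 RBPJ lists had 2, 2, 2 and 1 of the T cell genes in the order above. Of the same 8 kidney or HEK293T genes, they had 6, 3, 3 and 2. Of 7 B cell and myeloid genes, SPI1 had an interval in both ATAC lists and CD79A in wild-type RBPJ, and the others had none.

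A histone gene was counted where an interval overlapped the 1 kb around either annotated end, called a gene-end interval. In wild-type RBPJ, 45 of 69 had one (65.2%, exact 95% interval 52.8 to 76.3%, against 54.2% of all protein-coding genes). In knockout RBPJ, 39 had one (56.5%, 44.0 to 68.4%, against 41.0%). In titled RBPJ, 28 had one (40.6%, 28.9 to 53.1%, against 38.2%), and in titled RBPJK175R 32 had one (46.4%, 34.3 to 58.8%, against 29.3%). The share in titled RBPJ was near that of all genes. In wild-type RBPJ the exact interval held the share of all genes, and in knockout RBPJ and titled RBPJK175R it lay above that share. In the ATAC lists, 44 had one in wild type (63.8%, against 56.3%, which its exact interval held) and 39 in knockout (56.5%, 44.0 to 68.4%, against 42.7%). Such intervals cover counting error only, and take genes as independent, which neighbours that share an interval are not.

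**Figure D1:**
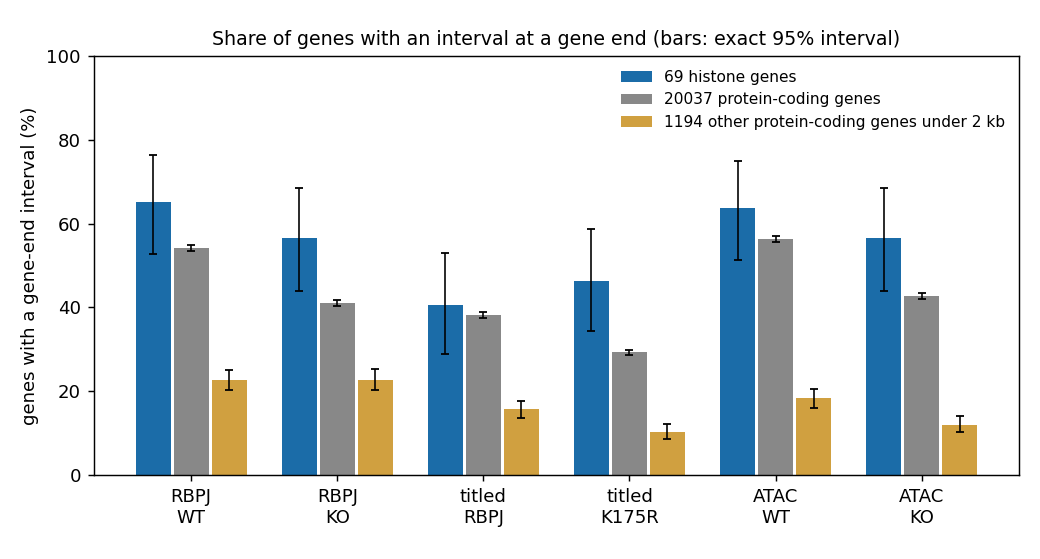
Percent of genes with an interval within 1 kb of a gene end (y axis) in each of the 6 lists (x axis; WT and KO are FBXO42 wild type and knockout), for the 69 histone genes, all 20037 protein-coding genes and the 1194 other protein-coding genes under 2 kb, with exact 95% intervals for counting error. Histone genes lie between 40.6% and 65.2%, and other genes under 2 kb between 10.4% and 22.7%.

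Gene length bears on this count, since the windows of a short gene overlap. Of the 69 histone genes, 61 span under 2 kb. Their share with an interval was 60.7% in wild-type RBPJ, 52.5% in knockout RBPJ, 37.7% in titled RBPJ and 39.3% in titled RBPJK175R. The 1194 other protein-coding genes under 2 kb had shares of 22.6%, 22.7%, 15.7% and 10.4% in the same lists. In ATAC the short histone genes stood at 60.7% and 52.5%, and the other short genes at 18.3% in wild type and 12.0% in knockout. Short histone genes thus had intervals at 2.31 to 4.38 times the share of other short genes in all 6 lists. Inside the spans of the clusters and of the lone genes lay 10 protein-coding genes that are not replication-dependent histones. Of these, 1 or 2 had an interval in each list. Among them were the solute carrier genes SLC17A1 to SLC17A4 and the testis linker histone H1-6. Another was HSF2BP, which spans the lone H2BC12L on chromosome 21 and had an interval in 4 lists.

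Linker histones coat the DNA that enters and leaves the nucleosome. H1-4, at 26156329 to 26157115 on the plus strand of chromosome 6, and its neighbour H2BC5, which starts 1006 bases beyond the H1-4 end, shared an RBPJ interval with the most reads of all histone loci. Its summit held 313 reads in wild-type RBPJ, 95 in knockout RBPJ, 91 in titled RBPJ and 55 in titled RBPJK175R. The interval also held the most reads of any histone interval in knockout RBPJ and titled RBPJ, and ranked behind H2AC25 and H2BC26 in titled RBPJK175R. The 4 RBPJ summits lay 1017 to 1131 bases after the H1-4 start, past its end, and 661 to 775 bases before the H2BC5 start. They thus fell between both genes and outside the printed 250 bases of either promoter. The leading ATAC summit lay elsewhere, 47 bases before the H2BC5 start in wild type (46 reads) and 7 bases before it in knockout (21 reads). The wild-type RBPJ interval ran from 26155641 to 26158906, 3266 bases, and covered both starts.

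The other linker genes were lower or had no interval. H1-2, a widely expressed linker histone at 26055740 to 26056470, had summits of 60, 41, 30 and 27 reads in the 4 RBPJ lists in the order above, and of 25 and 12 reads in wild-type and knockout ATAC. H1-3 had 11 reads in wild-type RBPJ and 9 in titled RBPJK175R, and no interval in knockout RBPJ or titled RBPJ. In ATAC, H1-3 had 24 reads in wild type and 14 in knockout, so that its ATAC summits held more reads than its RBPJ summits. H1-1 and H1-5 had no interval in any list. The linker count was thus 3, 2, 2, 3, 3 and 3 of 5 over the 6 lists.

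**Figure D2:**
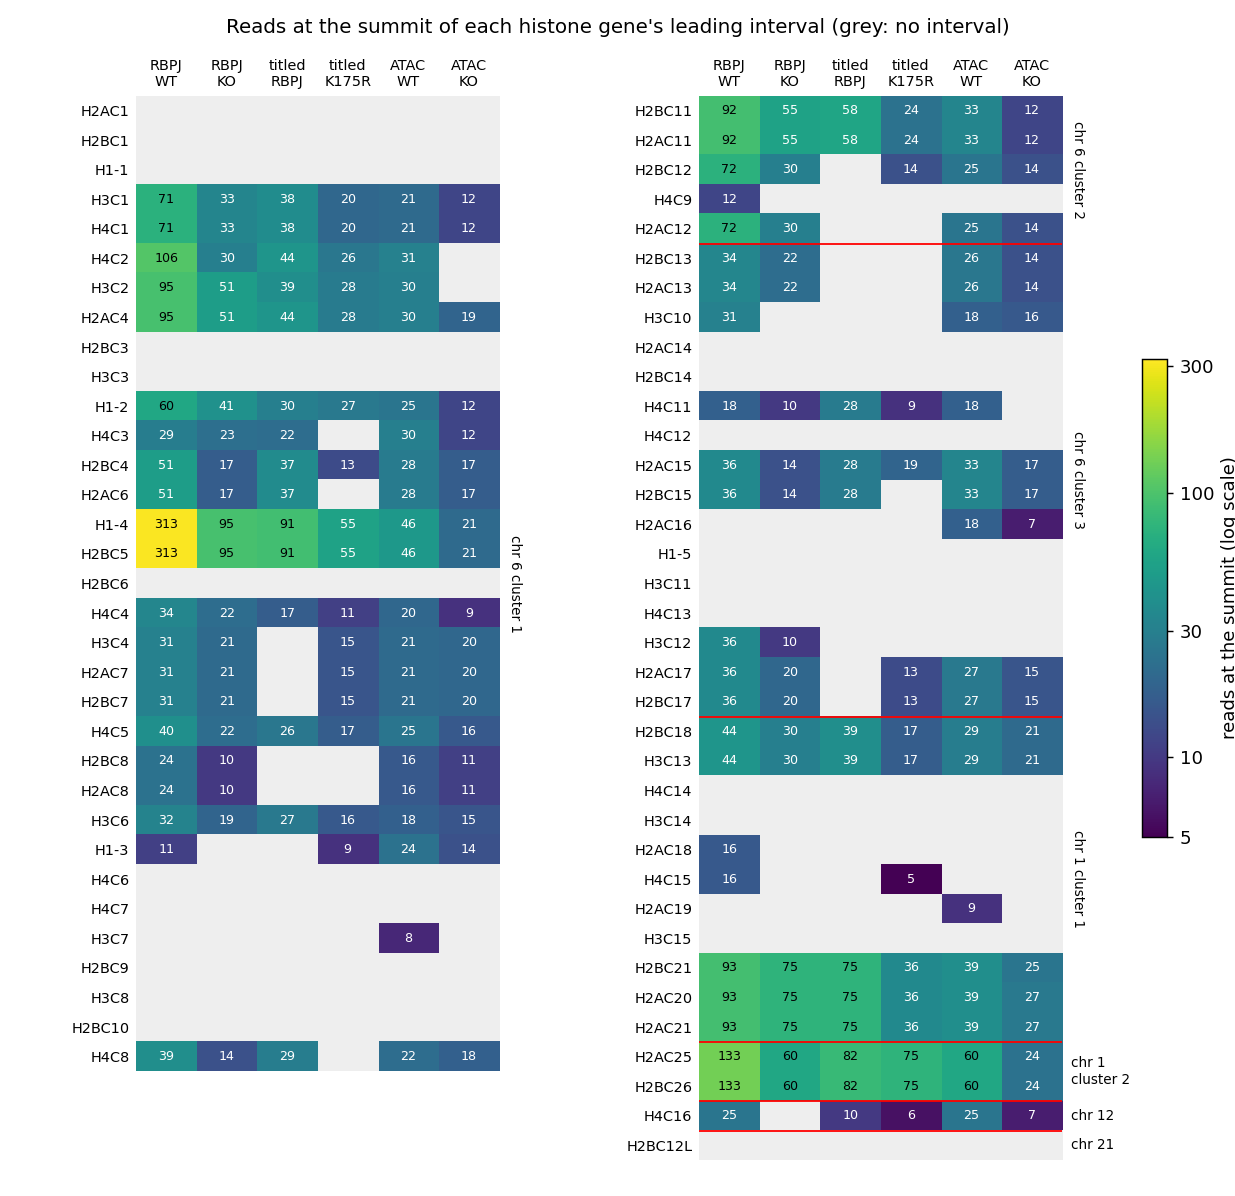
Reads at the summit of the leading interval (the one with the most reads) at each of the 69 histone genes (rows, in genome order by cluster) in the 6 lists (columns; WT and KO are FBXO42 wild type and knockout), on a log colour scale, with grey for no interval. Neighbours with the same leading interval show equal values, but equal values can also come from separate intervals. The row pair H1-4 and H2BC5 is highest with 313 reads in wild-type RBPJ.

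The order of the core histone families by share of genes with an interval differed between lists. H2A came first in wild-type and knockout RBPJ (76.5% and 70.6%) and in both ATAC lists (82.4% and 76.5%), H4 in titled RBPJ (53.3%) and H2B in titled RBPJK175R (47.4%, beside 47.1% for H2A). Of 17 H2A genes, 13, 12, 7 and 8 had one in the 4 RBPJ lists, and 14 and 13 in the ATAC lists. Of 19 H2B genes, 12, 12, 7 and 9 had one in the RBPJ lists, and 12 in each ATAC list. The counts for 13 H3 genes were 7, 6, 4 and 5 in RBPJ and 7 and 5 in ATAC. Those for 15 H4 genes were 10, 7, 8 and 7 in RBPJ and 8 and 6 in ATAC. Each family had an interval in every list, and differences between families were not tested.

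A divergent pair on the second chromosome 1 cluster had the highest core summit after H2BC5 in wild-type RBPJ and titled RBPJ, and the highest of all in titled RBPJK175R and wild-type ATAC. In knockout RBPJ and knockout ATAC the interval at H2AC20 and H2AC21 held more reads, 75 against 60 and 27 against 24. H2AC25 and H2BC26, which start 230 bases apart on opposite strands, shared an interval from 228457100 to 228459407 in wild-type RBPJ. Its summit held 133 reads in wild-type RBPJ, 60 in knockout RBPJ, 82 in titled RBPJ and 75 in titled RBPJK175R. It held 60 reads in wild-type ATAC, the most of any histone gene in that list, and 24 in knockout ATAC. Titled RBPJK175R was the only list of the 4 RBPJ lists in which this pair, and not H1-4, stood first.

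H2AC20, H2AC21 and H2BC21, at the end of the first chromosome 1 cluster, shared an RBPJ interval of 4209 bases in wild type, 149884836 to 149889044. Its summit held 93 reads in wild-type RBPJ, 75 in knockout RBPJ, 75 in titled RBPJ and 36 in titled RBPJK175R. The ATAC summits held 39 reads in wild type, and in knockout 27 at H2AC20 and H2AC21 and 25 at H2BC21. The RBPJ summits moved within this wide interval, from 216 bases after the H2BC21 start in wild type to 363 bases before the H2AC21 start in titled RBPJ. H2AC11 and H2BC11, a divergent pair in the second chromosome 6 cluster, had 92, 55, 58 and 24 reads in the RBPJ lists, and 33 and 12 in ATAC.

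H4C2, H3C2 and H2AC4 stand next to each other in the first chromosome 6 cluster. In wild-type RBPJ, the H4C2 interval ran over 4546 bases, the widest of any histone interval, with 106 reads at a summit 1721 bases before the H4C2 start. In knockout RBPJ, titled RBPJ and titled RBPJK175R its summits held 30, 44 and 26 reads and lay 506 to 547 bases after the start. The wild-type summit of H4C2 is therefore at another place from the rest. The interval shared by H3C2 and H2AC4 held 95 reads in wild-type RBPJ, 116 bases after the H3C2 start, and 51 in knockout RBPJ, 98 bases after the H2AC4 start. The authors' folds at these wild-type summits were 30.9 for H4C2 and 25.1 for H3C2 and H2AC4, above the 13.0 of H1-4, since the local background there was 2.46 and 2.82 reads against 23.2.

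**Figure D3:**
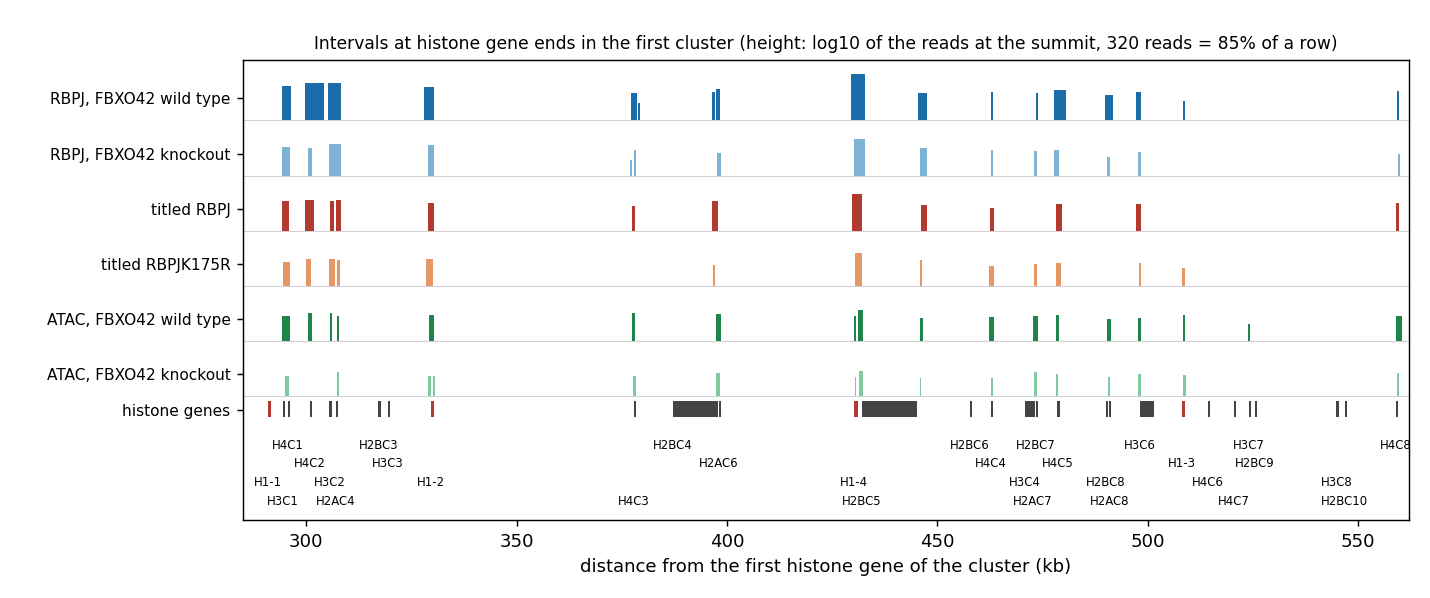
Map of the part of the first chromosome 6 cluster that held intervals, with distance in kb from the first histone gene of the cluster (x axis), called intervals of the 6 lists at histone gene ends (bars, width to scale, height by the log10 of summit reads) and the histone genes below (linker genes in red). The cluster held intervals in every list, with the tallest bar, 313 reads, between H1-4 and H2BC5.

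Counted per interval, 33 intervals lay at histone gene ends in wild-type RBPJ, 26 in knockout RBPJ, 20 in titled RBPJ, 24 in titled RBPJK175R, 35 in wild-type ATAC and 32 in knockout ATAC. Of these, 17, 14, 9, 10, 16 and 15 covered more than 1 histone gene, and none covered more than 3. The mean was 1.61 histone genes per interval in wild-type RBPJ and 1.53 in knockout ATAC. Over all gene-end intervals it was 1.21 protein-coding genes in both. The share covering more than 1 gene was not counted over all gene-end intervals. The median interval at a histone end was 1291 bases wide in wild-type RBPJ and 604 in knockout ATAC, against 998 and 556 over all gene-end intervals. Per chromosome, 35, 32, 20 and 23 of the 54 genes on chromosome 6 had an interval in the RBPJ lists, and 9, 7, 7 and 8 of the 13 on chromosome 1. In ATAC the counts were 35 and 31 on chromosome 6 and 8 and 7 on chromosome 1. In the third cluster of chromosome 6, 9, 8, 3 and 4 of the 16 genes had an interval in the RBPJ lists, and 9 and 8 in ATAC.

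The 12 divergent pairs mostly shared an interval or had none. 9 of the 12 shared an interval between both genes in wild-type RBPJ, knockout RBPJ and each ATAC list, and 5 in titled RBPJ and in titled RBPJK175R. H2AC1 and H2BC1, which encode testis histones, had no interval in any list, as did the pair H2AC14 and H2BC14. At histone genes with a promoter entry, the leading summit lay within 500 bases of the start in 31 of 41 in wild-type RBPJ (75.6%, against 73.5% of all protein-coding genes) and in 17 of 31 in titled RBPJK175R (54.8%, against 66.4%). In ATAC the counts were 33 of 41 (80.5%, against 77.9%) in wild type and 31 of 36 (86.1%, against 80.2%) in knockout.

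Over the 6 lists, 20 histone genes had an interval in all of them (29.0%, against 17.5% of all protein-coding genes) and 21 in none (30.4%, against 30.2%). The genes in all lists were H1-2, H1-4, H2AC4, H2AC11, H2AC15, H2AC20, H2AC21, H2AC25, H2BC4, H2BC5, H2BC11, H2BC18, H2BC21, H2BC26, H3C1, H3C6, H3C13, H4C1, H4C4 and H4C5. Those in none were H1-1, H1-5, H2AC1, H2AC14, H2BC1, H2BC3, H2BC6, H2BC9, H2BC10, H2BC12L, H2BC14, H3C3, H3C8, H3C11, H3C14, H3C15, H4C6, H4C7, H4C12, H4C13 and H4C14. Histone genes in 1 to 3 lists numbered 8, and those in 4 or 5 lists numbered 20. Absence from a list means no call at its depth, not absence of RBPJ or of open chromatin.

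Most intervals at histone genes in 1 list overlapped an interval of another. All 20 histone intervals of titled RBPJ overlapped an interval of wild-type RBPJ by at least 1 base, as did 84.3% of titled RBPJ intervals at the ends of all protein-coding genes. All 26 of knockout RBPJ did so too, against 75.1%. Of the 33 in wild-type RBPJ, 27 overlapped an interval of wild-type ATAC (81.8%), against 69.6% of the 11526 wild-type RBPJ intervals at the ends of all protein-coding genes. Of the 26 in knockout RBPJ, 24 did so (92.3%, against 60.9%), as did 20 of 20 in titled RBPJ (against 76.5%) and 20 of 24 in titled RBPJK175R (83.3%, against 73.1%). How much of the RBPJ signal at these genes came from transposase cutting open chromatin without the antibody was not tested.

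Near-identical copies limit some members. In 6 genes of the first chromosome 1 cluster, H2AC18, H2AC19, H3C14, H3C15, H4C14 and H4C15, 98.6% to 100% of the 25-base words of the promoter window recurred in the window of the copy. These 6 had an interval in 0 to 2 lists. The labels do not say how reads that match both copies were placed, and its part in these low counts was not tested. H4C11 and H4C12, in the third chromosome 6 cluster, were singled out after their values were seen, because their promoters are near copies with unlike calls. Their 250 bases before the start are printed with capitals at the 5 bases that differ, 98.0% being identical.
H4C11, chr6:27823842-27824091, + strand: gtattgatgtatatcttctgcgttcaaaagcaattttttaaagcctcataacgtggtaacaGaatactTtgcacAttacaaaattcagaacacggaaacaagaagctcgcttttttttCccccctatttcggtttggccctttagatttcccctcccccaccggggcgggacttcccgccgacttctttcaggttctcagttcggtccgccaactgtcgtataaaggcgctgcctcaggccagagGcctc
H4C12, chr6:27831561-27831810, - strand: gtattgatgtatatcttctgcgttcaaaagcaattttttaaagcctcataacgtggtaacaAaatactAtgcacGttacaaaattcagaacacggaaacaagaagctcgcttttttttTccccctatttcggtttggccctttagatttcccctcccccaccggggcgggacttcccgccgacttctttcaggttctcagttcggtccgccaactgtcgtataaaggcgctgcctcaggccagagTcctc
H4C11 had summits of 18, 10, 28 and 9 reads in the RBPJ lists and of 18 in wild-type ATAC, and no interval in knockout ATAC. H4C12 had none in any list. Both promoters hold TATAAA from base -31.

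The first comparison asked how RBPJ intervals at histone genes differ between FBXO42 wild-type and knockout HEK293T cells. Histone genes with an interval in wild type only numbered 6 (8.70%, against 17.4% of all protein-coding genes) and in knockout only 0 (against 4.27%), with 39 in both and 24 in neither. The 6 were H3C10 with 31 reads, H4C16 with 25, H2AC18 and H4C15 with 16 at a shared interval, H4C9 with 12 and H1-3 with 11. All 6 lay below 34.0 reads, the median over histone intervals in wild type. H2B genes had 0 in wild type only and H4 genes had 3. Intervals with a −log10 q of at least 10 were also taken alone (q is the peak caller's adjusted p-value). Then 11 histone genes were in wild type only and 0 in knockout only. At that cut, 37.4% of all protein-coding genes had an interval in wild type and 20.3% in knockout. Their shares in wild type only and in knockout only were not computed, so the count of 11 has no matching share.

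Where the leading intervals of both lists overlapped, the reads at the summits were compared as the ratio of knockout to wild type, divided by the ratio of the genome-wide backgrounds (0.921). Over 38 histone genes the median ratio was 0.600, and over 6398 protein-coding genes it was 0.577. All 38 ratios were below 1, as were 5939 of the 6398 over all genes compared. The quartiles were 0.452 and 0.727 against 0.462 and 0.724 over all genes. A ratio at least 2-fold lower was found at 14 histone genes (36.8%, against 33.6% of all genes compared), and one 2-fold higher at 0 (against 0.313%). The share and the median were thus close to those of all genes compared. The 38 genes rest on 22 distinct pairs of intervals. By the authors' fold over local background, the median over histone intervals was 5.07 in wild-type RBPJ and 5.93 in knockout RBPJ. Over all gene-end intervals it was 5.67 and 4.53. The fold was lower in knockout at H1-4 (13.0 and 10.4) and higher at H1-2 (6.46 and 11.4). The ratios above thus describe reads against the genome-wide background, not enrichment over local background.

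H1-4 and H2BC5, with 313 reads in wild type and 95 in knockout, had a ratio of 0.330 (95% counting interval 0.259 to 0.416), with both summits 114 bases apart. H2AC25 and H2BC26 had 0.490 (0.355 to 0.669). H4C2 had the lowest ratio, 0.307 (0.198 to 0.465), but its summits lay 2259 bases apart. H2AC20, H2AC21 and H2BC21 had the highest, 0.876 (0.637 to 1.20), and H1-2 had 0.742 (0.486 to 1.12). The counting interval lay wholly below 1 at 20 of the 38 genes, a count not set beside all genes here. Genes that share an interval count separately in it, and the 38 rest on 22 distinct pairs of intervals. The median was 0.583 over 31 genes on chromosome 6 and 0.740 over 7 on chromosome 1, and the chromosome 1 genes rest on 3 intervals, and this difference was not tested.

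**Figure D4:**
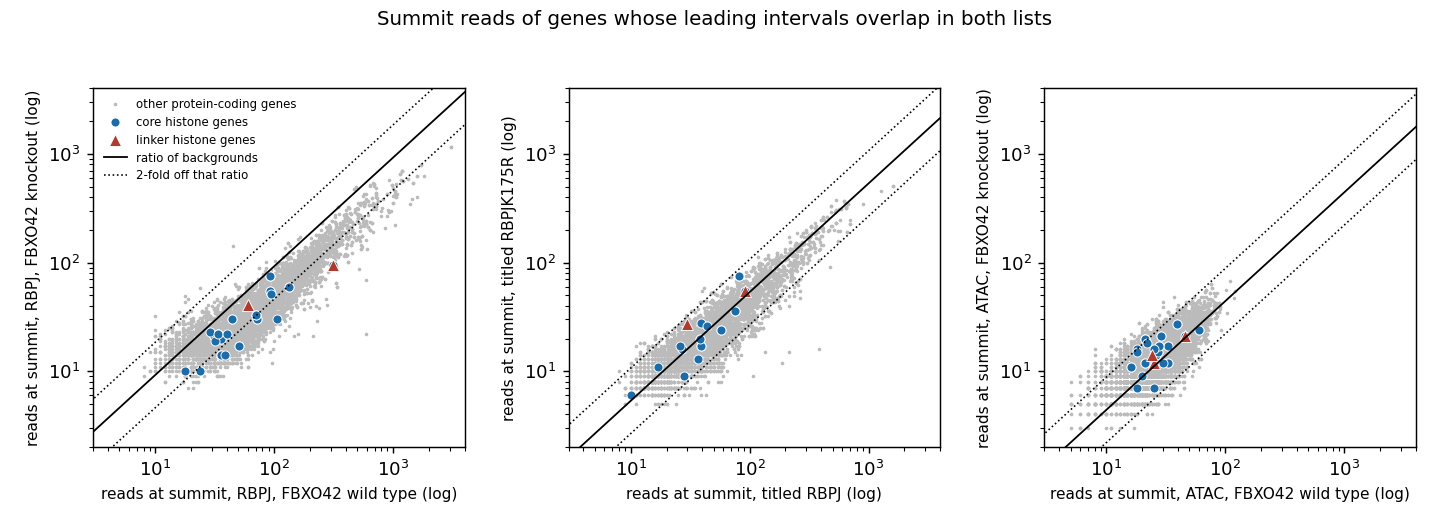
Reads at the summit of the leading interval in the second list (y axis, log) against the first list (x axis, log) for protein-coding genes whose leading intervals overlap, in 3 comparisons, with the ratio of genome-wide backgrounds (solid line) and 2-fold on either side (dotted). Of the histone genes (blue, red for linker), 14 of 38 lie on or below the lower dotted line in the wild-type against knockout RBPJ plot, and 0 of 22 in the RBPJ against RBPJK175R plot.

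The second comparison set the library titled RBPJ against the library titled RBPJK175R, both in FBXO42 knockout cells. An interval was present in titled RBPJ only at 4 histone genes (5.80%, against 13.6% of all protein-coding genes) and in titled RBPJK175R only at 8 (11.6%, against 4.63%), with 24 in both and 33 in neither. The 4 were H2AC6 with 37 reads, H4C8 with 29, H2BC15 with 28 and H4C3 with 22. The 8 were H3C4, H2AC7 and H2BC7 with 15 reads at a shared interval, H2BC12 with 14, H2AC17 and H2BC17 with 13 at another, H1-3 with 9 and H4C15 with 5. The 8 genes rest on 5 intervals, and their reads were below those of the 4. The titled RBPJK175R library had the lower background, 0.534 of that of titled RBPJ, and its histone calls held as few as 5 reads. With intervals of −log10 q of at least 10 the order of these counts turned. Then 7 histone genes were in titled RBPJ only and 0 in titled RBPJK175R only. At that cut, 20.2% of all protein-coding genes had an interval in titled RBPJ and 12.2% in titled RBPJK175R. Their shares in titled RBPJ only and in titled RBPJK175R only were not computed. The turn is thus not shown to be particular to histone genes.

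At 22 histone genes the leading intervals overlapped, and the median ratio of RBPJK175R to RBPJ was 1.05, against 0.937 over 4497 protein-coding genes. These 22 genes rest on 15 distinct pairs of intervals. None of the 22 was 2-fold lower (against 4.63% of all genes compared) or 2-fold higher (against 1.13%). Before the division by background all 22 ratios were below 1, with a median of 0.559, so that the direction depends on that scaling. H2AC25 and H2BC26, with 82 reads in titled RBPJ and 75 in titled RBPJK175R, had the highest ratio, 1.71 (1.24 to 2.37), and were the 2 genes whose counting interval lay wholly above 1. Their summits lay 511 bases apart. H1-4 and H2BC5 had 1.13 (0.795 to 1.60), H1-2 had 1.69 (0.965 to 2.93) and H4C11 had the lowest, 0.602 (0.250 to 1.31).

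The third comparison asked how open chromatin at histone genes differs between FBXO42 wild-type and knockout cells labelled Jurkat. An interval was present in wild type only at 5 histone genes (7.25%, against 15.1% of all protein-coding genes) and in knockout only at 0 (against 1.45%), with 39 in both and 25 in neither. The 5 were H4C2 with 31 reads, H3C2 with 30, H4C11 with 18, H2AC19 with 9 and H3C7 with 8. H4C2 and H3C2 stand next to each other, and their knockout calls were absent although H2AC4 beside them had 19 reads in knockout. The knockout library had a background of 0.441 of the wild-type one. With intervals of −log10 q of at least 10, 23 histone genes had one in wild type only and 3 in knockout only. At that cut, 35.5% of all protein-coding genes had an interval in wild type and 13.5% in knockout. Their shares in wild type only and in knockout only were not computed, so the counts of 23 and 3 have no matching shares.

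At 37 histone genes the leading ATAC intervals overlapped, and the median ratio of knockout to wild type was 1.27, against 1.13 over 7863 protein-coding genes. These 37 genes rest on 23 distinct pairs of intervals. None was 2-fold lower (against 0.852% of all genes compared). At least 2-fold higher were 4 of 37 (10.8%, against 4.37%): H2AC7, H2BC7 and H3C4, which share an interval with 21 reads in wild type and 20 in knockout (2.16, 1.11 to 4.18), and H3C10 with 18 and 16 reads (2.01, 0.961 to 4.19). Without the division by background all 37 ratios were below 1, with a median of 0.560. These reads are few, and the ratios of H1-4 and H2BC5 (1.03, 0.586 to 1.77) and of H2AC25 and H2BC26 (0.907, 0.540 to 1.48) lay within counting error of 1. The ATAC and RBPJ comparisons carry different cell line labels and are given side by side only.

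Genes that act on the histone genes were read against the shares of all protein-coding genes, 54.2%, 41.0%, 38.2% and 29.3% in the RBPJ lists and 56.3% and 42.7% in ATAC. Of 23 genes of the histone locus body and of histone mRNA 3′ processing, 21, 21, 18 and 16 had a gene-end interval in the RBPJ lists (91.3%, 91.3%, 78.3% and 69.6%), and 21 and 19 in ATAC (91.3% and 82.6%). SLBP, which binds the stem-loop of histone mRNA, held 403, 167, 137 and 47 reads in the RBPJ lists. NPAT, the coactivator of histone transcription in the histone locus body, held 104, 49, 61 and 27, and HINFP, which binds H4 promoters, held 98, 25, 32 and 18. POU2F1, which binds the octamer, held 86, 26 and 47 in the first 3 and had no interval in titled RBPJK175R. The 14 histone chaperone and assembly genes had 14, 13, 10 and 7 in the RBPJ lists and 13 and 11 in ATAC. The 12 replication-independent variant histone genes, which are expressed outside S phase, had 9, 7, 10 and 7 in the RBPJ lists and 10 and 7 in ATAC.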

How the data were processed

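The labels describe CUT&Tag and ATAC-seq libraries, and 6 lists of peaks, 1 per library, were used. In the submitters' processing notes, MACS2, Bowtie2, deepTools, Trim Galore and the build hg38 are listed without roles or versions. Per the labels, no pooling is stated. Not given in the sources used here are the control libraries, the settings and how reads with several matches were placed. The deposited lists give the authors' fold of each summit over local background (a ratio), the −log10 of a p-value and of a q-value, and a score. The deposited score was not used for any value. All of these belong to a peak of 1 list.

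Reads at a summit and their background were computed from the authors' fold and the deposited −log10 p under the Poisson model of the peak caller, within 0.01% of the −log10 p. Whole reads were recovered for at least 99.90% of intervals in every list, with the pileup of titled RBPJ scaled by 0.812. The most common background of a list, in reads, was taken as its depth. The recovery and the counts were tested on simulated data. Gene positions came from RefSeq, which gives both ends. Strand and start came from the promoter table, for 63 genes. Only intervals on chromosomes 1 to 22, X and Y entered. A cluster was split where neighbouring members lay over 500 kb apart. Intervals around shares are Clopper-Pearson at 95%, and those around ratios come from exact binomial limits; both cover counting error only. With 1 library per group no test between conditions was made, and no p-value was computed. Python 3.11.15 with numpy 2.4.6, pandas 2.3.3, scipy 1.17.1 and matplotlib 3.10.9 was used.

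Named were the linker genes, the members with the most summit reads in each list, those in 1 list of a comparison, those in all 6 lists or in none, and those outside the clusters. Promoters printed were H1-4, members in all lists with the most wild-type RBPJ reads and a member in none, with the pair H4C11 and H4C12 added. The members and lists were chosen with earlier results of these data known. Alternatives changed the window, the end used, the summit rule, the −log10 q minimum and the scaling.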

Additional observations from a re-analysis of the deposited data

How the results depend on the processing

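Of 129 values recomputed under another choice, 106 stayed within 1.5 times the reported value and on its side of 1, 21 moved further and 2 changed side. Without the division by background, the median ratio at histone genes was 0.559 for RBPJK175R against RBPJ and 0.560 for knockout against wild-type ATAC. Most of the rest came from keeping intervals with −log10 q of at least 10. Histone genes with an interval were then 23 in knockout RBPJ, 12 in titled RBPJK175R, 29 in wild-type ATAC and 9 in knockout ATAC, where 20.3%, 12.2%, 35.5% and 13.5% of all protein-coding genes had one. Intervals at histone ends were 21, 14, 12 and 10 in the RBPJ lists and 21 and 6 in ATAC. For wild-type against knockout RBPJ, 11 genes were in wild type only and 23 in both. For RBPJ against RBPJK175R, 7 were in the first only, 0 in the second only and 12 in both. For ATAC, 23 were in wild type only, 3 in knockout only and 6 in both. At this cut, 37.4% of all protein-coding genes had an interval in wild-type RBPJ and 20.2% in titled RBPJ. For none of the comparisons was the share of all protein-coding genes in a single list computed at this cut. The knockout-only count, 0 as reported, was 1 for RBPJ with a window of 2 kb and 3 with the summit inside the window, and 1 for ATAC with the summit inside it. The cause of these shifts was not tested. Scaling by background over the lowest interval width gave medians of 0.660, 1.02 and 1.32, against 0.635, 0.909 and 1.18 over all genes. Keeping summits within 500 bp of each other gave 0.603, 1.11 and 1.27, against 0.575, 0.937 and 1.13. Both choices were made after seeing the data. With 1 library per group, no replicate could be left out. No paired analysis was possible because each group has 1 library. In knockout ATAC, 34.3% of all summits held at most 5 reads, and those at histone genes held at least 7.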
